A study of Mus musculus with 12 samples.

Results

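Prostate tissue from 3 mice labelled Trp53pc-/- was compared with prostate tissue from 3 WT mice over all genes of the deposited tables, and the 6 libraries were taken by their genotype labels from the 12 libraries of the series analysed here. The study placed loss of Trp53 beside a prostate-restricted ERG transgene, and the comparison described here asks what Trp53 deletion alone did to the RNA of the gland. All mice were C57BL/6 and 15 months old. According to the methods, the Trp53pc-/- mice carried floxed Trp53 alleles and Pb-Cre4, a Cre recombinase under the probasin promoter that acts in prostatic epithelial cells, and the WT mice were littermate controls. The remaining libraries, 3 labelled Pb-ERG and 3 labelled Pb-ERG, Trp53pc-/-, were used for the shared estimate of the spread and for a second look at Trp53 deletion in mice that also carried the transgene. In these whole-tissue samples, stromal, muscle, nerve and immune cells keep Trp53, and fewer cells of a type cannot be told apart from less RNA per cell.

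The p53 protein is a transcription factor that is held at low levels by the ubiquitin ligase Mdm2 and is stabilised by DNA damage and other stress, when it activates genes that stop the cell cycle, start apoptosis or repair DNA. The mouse prostate is made of paired ventral, dorsal, lateral and anterior lobes, and the luminal cells of each lobe secrete a different mixture of proteins into the seminal fluid. The labels say prostate and do not say which lobes went into each sample, so the lobe content of a sample and its genotype cannot be told apart.

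The 6 libraries held 19747635 to 26838874 fragments, and 91.1% to 97.0% of them fell on the 41042 listed genes. Prostate identity was clear in each library, as the prostate homeobox gene Hoxb13 had 88.3, 88.8 and 96.5 FPKM (fragments normalised to exon length and to the library total) in WT mice and 111, 174 and 183 FPKM in the Trp53pc-/- mice. The Trp53pc-/- libraries lay further from each other, at root mean square log2 distances of 0.455 to 0.677 over 17623 genes, than the WT libraries did, at 0.366 to 0.430, and the distances between the groups were 0.429 to 0.585. Trp53pc-/- replicate 2 stood apart with transcripts that carry ribosomal RNA-like sequence, which took 4.52% of its fragments against 0.61% to 1.07% in the other 5 libraries, and with the haemoglobin gene Hbb-bs at 608 FPKM against 25.8 to 55.6 FPKM. All 4 ribosomal RNA-like transcripts followed here and 1 of 4 haemoglobin genes were higher without overlap in the Trp53pc-/- mice, against 8.53% of all tested genes. Both lists were written after the values were seen, so these counts are a description. Trp53pc-/- replicate 3 stood apart with the secretory gene Sbp, which took 19.04% of its fragments. The part of these features in the results below was not tested, and many of the counts that moved by over 1.5 times without these libraries are given below.

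No gene was called between the Trp53pc-/- and WT groups. Limma on log2(FPKM + 1) with Benjamini-Hochberg adjustment gave 0 of 17623 genes (0.0%) at an adjusted p under 0.001 and 0 at an adjusted p under 0.05, with a smallest adjusted p of 0.935. Unadjusted, 579 higher and 329 lower genes had a p under 0.05, and limma voom on fragment counts recovered from the FPKM also called 0 genes. The median log2 difference over all tested genes was 0.03. The description that follows therefore rests on genes whose values in the 3 Trp53pc-/- mice did not overlap those in the 3 WT mice. For such a gene the two-sided exact permutation test gives p = 0.1, which is the smallest p that 3 mice against 3 allow.

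Of the 17623 genes, 1504 (8.53%) were higher in every Trp53pc-/- mouse than in every WT mouse and 1178 (6.68%) were lower. With the 17 genes above 1% of the fragments of a library kept out of the total, the same counts were 2107 and 1129, and with median-of-ratios scaling they were 1513 and 1599. Without Trp53pc-/- replicate 3 they were 4477 and 2063, without Trp53pc-/- replicate 1 they were 2501 and 2574, without WT replicate 1 they were 2893 and 1787, and without WT replicate 2 they were 2499 and 2267, since fewer values then have to be separated. Exon length moved with the direction. The genes without overlap that were higher had a median exon length of 2033 bases, those lower had 4107 bases, and all tested genes had 2754 bases. Among the 3524 shortest genes 11.1% were higher and 2.84% lower, and among the 3525 longest 3.38% were higher and 13.7% lower. The part of exon length in the results for single genes was not tested.

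**Figure D1:**
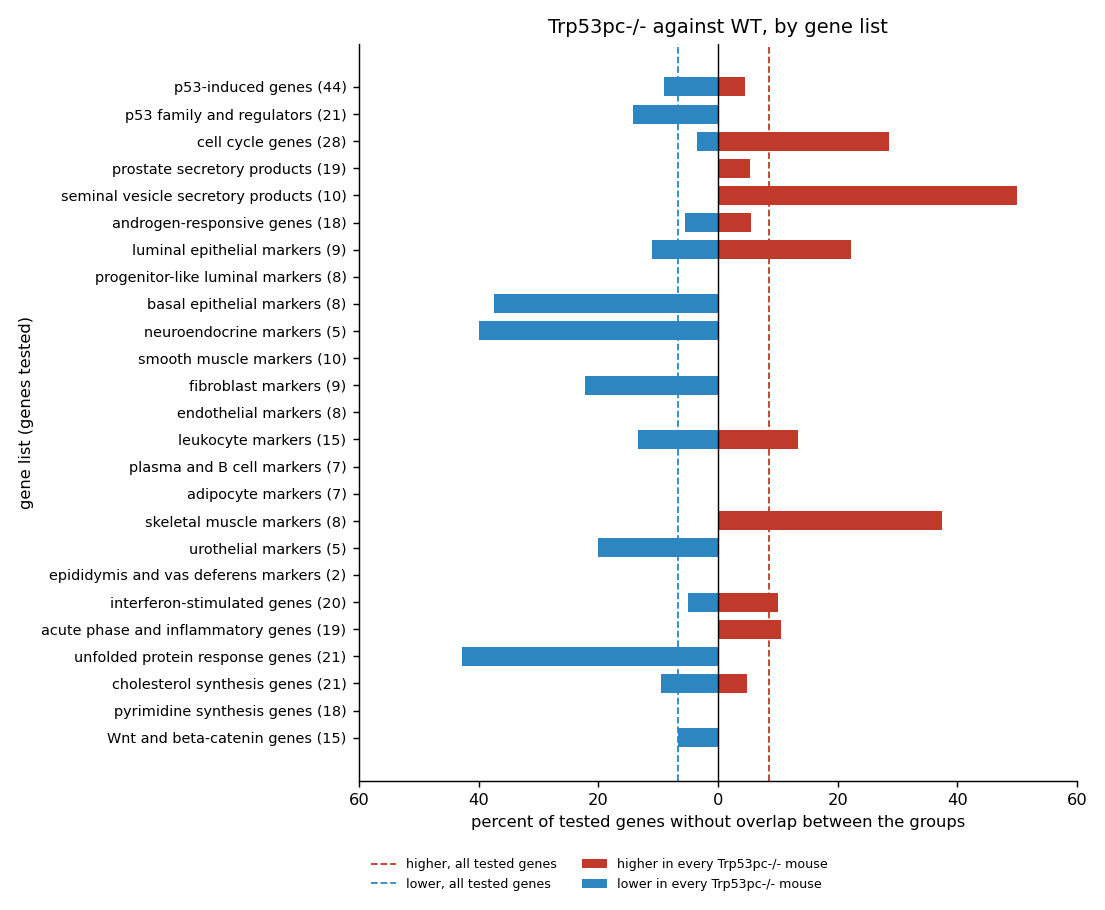
Percent of the tested genes of each of 25 gene lists that were higher (red bars, right) or lower (blue bars, left) in all 3 Trp53pc-/- mice than in all 3 WT mice, with the number of genes tested in parentheses and dashed lines at the percent over all 17623 tested genes (8.53% higher, 6.68% lower). The bar of the seminal vesicle products (5 of 10) includes 3 genes with under 10 fragments in a WT library, and the unfolded protein response genes reach furthest to the left (9 of 21), while several lists have no bar.

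Trp53 itself (chromosome 11, 69580359 to 69591873, plus strand, GRCm38) had 11.3, 8.87 and 9.08 FPKM in WT mice and 10.6, 9.03 and 5.32 FPKM in the Trp53pc-/- mice. The groups overlapped. The value covers the whole gene and all cells of the tissue and does not show deletion of the floxed exons in the epithelium, so genotypes are those of the labels. The transgene was absent as labelled, with Erg at 0.268 to 0.925 FPKM in the 6 mice and at 8.26 to 27.1 FPKM in the 6 mice with Pb-ERG.

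Among 44 genes that p53 is known to induce, all of which were tested, 4 were lower without overlap, 2 were higher without overlap and 38 overlapped. The shares of 9.09% lower and 4.55% higher lie near those of all tested genes, and the median log2 difference was -0.01 against 0.03 over all tested genes. Without Trp53pc-/- replicate 3, 13 of the 44 genes (29.5%) were lower without overlap, against 11.7% of all tested genes under the same omission. The count was 7 (15.9%) without WT replicate 2, without Trp53pc-/- replicate 1 or without Trp53pc-/- replicate 2, against 2267, 2574 and 1763 of all 17623 genes.

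Eda2r (chromosome X, 97333840 to 97377216, minus strand), a receptor of the tumour necrosis factor family, stood furthest from WT in this list. It had 1.97, 1.92 and 1.33 FPKM in WT mice and 0.381, 0.612 and 0.506 FPKM in the Trp53pc-/- mice. All 3 Trp53pc-/- mice lay well below the lowest WT mouse, and the mean FPKM was 3.48-fold lower. The log2 difference was -0.86 (SE 0.17, adjusted p = 0.935 in limma after Benjamini-Hochberg correction, unadjusted p = 0.000442), and 608 fragments in the WT libraries and 157 in the Trp53pc-/- libraries stood behind it.

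Ccng1 (chromosome 11, 40748552 to 40755311, minus strand), which encodes cyclin G1, a feedback regulator of p53 through Mdm2, was expressed more strongly. It had 49.5, 58.5 and 52.7 FPKM in WT mice and 42.0, 38.9 and 36.4 FPKM in the Trp53pc-/- mice. The groups were separated by a small gap, and the mean FPKM was 1.37-fold lower, with a log2 difference of -0.44 (SE 0.15, adjusted p = 0.935 in limma after Benjamini-Hochberg correction, unadjusted p = 0.0151). The Ccng1 promoter is shown because this gene was lower both with and without the transgene and its window holds a match to the p53 decamer, the 10-base unit of the p53 binding site, which is in capitals. The window runs from 250 bases before the start of the gene to 50 bases after it, from RefSeq, GRCm38.p6, chr11:40755237-40755536, minus strand.
Ccng1: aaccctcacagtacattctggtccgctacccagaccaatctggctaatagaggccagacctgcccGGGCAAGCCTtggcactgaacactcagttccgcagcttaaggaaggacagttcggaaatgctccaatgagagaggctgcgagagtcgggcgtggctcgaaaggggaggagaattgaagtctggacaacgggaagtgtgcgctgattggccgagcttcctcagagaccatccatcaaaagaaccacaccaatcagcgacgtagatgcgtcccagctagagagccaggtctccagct
A decamer match on either strand was present in the windows of 13 of the 34 list members with a promoter in the reference and of 9.55% of all 27025 genes. Of the 3 lower members with a window, Ccng1 held a match and Eda2r and Ercc5 held none.

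The other p53-induced genes without overlap were Ercc5, Trp53cor1, Ak1 and Ptp4a3. Ercc5, a nuclease of nucleotide excision repair, had 5.09, 4.82 and 4.85 FPKM in WT mice and 4.61, 4.07 and 4.02 FPKM in the Trp53pc-/- mice. Trp53cor1, the long noncoding RNA known as lincRNA-p21 that lies beside Cdkn1a on chromosome 17, had 0.272, 0.131 and 0.113 FPKM in WT mice and 0.0422, 0.0171 and 0.105 FPKM in the Trp53pc-/- mice, from 38 and 11 fragments in all. Its mean FPKM was 3.15-fold lower, and 5.81-fold lower without Trp53pc-/- replicate 3. Ak1, an adenylate kinase, and the phosphatase gene Ptp4a3 were higher in every Trp53pc-/- mouse, with mean FPKM 1.53-fold and 1.55-fold above WT.

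The best-known p53-induced genes overlapped between the groups. Cdkn1a, which encodes the cell cycle inhibitor p21, had 7.11, 3.54 and 3.96 FPKM in WT mice and 1.93, 3.42 and 3.79 FPKM in the Trp53pc-/- mice, with a log2 difference of -0.52 (SE 0.49, adjusted p = 1 in limma after Benjamini-Hochberg correction). Only WT replicate 1 and Trp53pc-/- replicate 1 lay away from the other 4 mice. WT and Trp53pc-/- mice of the same number deviated together weakly over all genes (r = 0.179 to 0.240). The labels give only a replicate number and do not say that these mice were paired. Read by these pairs, Cdkn1a was lower in each of the 3, by little in the pairs numbered 2 and 3. Trp53inp1, Zmat3, Fas, Ddb2, 9030617O03Rik and Ptpn14 also overlapped and were lower in each pair. In all, 11 of the 44 genes (25.0%) were lower in every pair and 5 (11.4%) higher. Over all tested genes, 15.5% were lower and 3708 of 17623 were higher in every pair. For 3 pairs no two-sided exact p can lie below 0.25. Mdm2 had 16.7, 15.9 and 15.4 FPKM in WT mice and 19.3, 18.2 and 13.0 FPKM in the Trp53pc-/- mice, and the proapoptotic gene Bax had 22.6, 18.4 and 14.1 FPKM and 20.7, 29.7 and 19.2 FPKM. For both genes the Trp53pc-/- mice lay on either side of the WT mean or above it.

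The mice with the Pb-ERG transgene gave a comparison of Trp53 deletion that shares no library with the one above. At the age studied, the paper reports high-grade lesions and focal cancer in many Pb-ERG, Trp53pc-/- mice and low-grade lesions in fewer Pb-ERG mice. The labels do not say which mice had lesions. The prostate secretory genes took 18.3%, 6.88% and 5.44% of the fragments in Pb-ERG mice and 7.67%, 7.92% and 0.0904% in Pb-ERG, Trp53pc-/- mice. The part of lesions and secretory content in this comparison was not tested. Over all tested genes, 3.23% were lower without overlap in the mice labelled Pb-ERG, Trp53pc-/- than in those labelled Pb-ERG. Of the 44 p53-induced genes, 6 were lower and 3 higher there, where 2115 of all 17623 genes were higher. Their median log2 difference was 0.06 against 0.12 over all tested genes. Eda2r and Ccng1 were the 2 that were lower without overlap in both comparisons. Eda2r had 2.34, 3.58 and 2.73 FPKM in the Pb-ERG mice and 1.60, 1.14 and 1.08 FPKM in the Pb-ERG, Trp53pc-/- mice, with a log2 difference of -0.77 (SE 0.17, adjusted p = 0.224 in limma after Benjamini-Hochberg correction). Ccng1 had 57.4, 59.5 and 68.3 FPKM and 44.1, 49.2 and 34.2 FPKM, with a log2 difference of -0.54 (SE 0.15, adjusted p = 0.285 in the same limma fit). The log2 differences in mice with and without the transgene were not shown to differ, with an interaction of 0.10 for Eda2r (adjusted p = 0.946 in limma) and -0.10 for Ccng1 (adjusted p = 0.939 in limma).

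**Figure D2:**
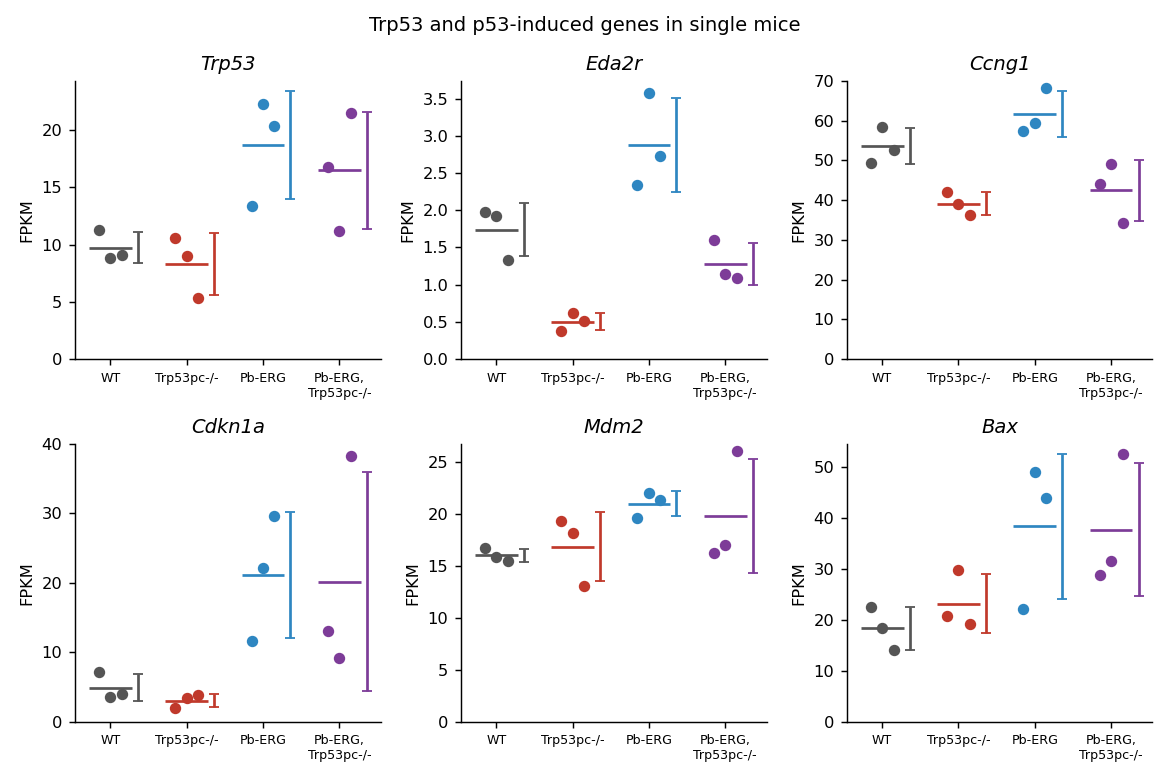
FPKM of Trp53 and 5 p53-induced genes in single mice (points) of the WT, Trp53pc-/-, Pb-ERG and Pb-ERG, Trp53pc-/- groups, with the mean of 3 mice as a horizontal line and the SD as the bar beside it. Eda2r and Ccng1 lie lower without overlap in the Trp53-deleted mice of both backgrounds, whereas Trp53, Cdkn1a, Mdm2 and Bax overlap between WT and Trp53pc-/- mice.

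In a list of 22 p53 family members and regulators, 21 were tested. Of these, 3 (14.3%) were lower without overlap and none higher, against 6.68% and 8.53% of all tested genes. Without Trp53pc-/- replicate 3, 6 of the 21 (28.6%) were lower and 5 (23.8%) higher, against 11.7% and 25.4% of all tested genes. With the genes above 1% kept out of the total, 2 were lower and 1 higher. Trp63, the basal cell paralog of p53, had 3.23, 2.703 and 3.91 FPKM in WT mice and 1.62, 2.20 and 1.68 FPKM in the Trp53pc-/- mice. The checkpoint kinase gene Chek2 had 2.44, 3.83 and 4.18 FPKM and 2.33, 2.23 and 1.53 FPKM, and the damage-response adaptor gene Trp53bp1 had 4.16, 4.42 and 5.48 FPKM and 3.27, 3.04 and 4.14 FPKM. In the latter pair of genes the gap to the nearest WT mouse was small. Among 8 basal epithelial markers, Trp63, Col17a1 and Dst were lower without overlap (37.5%, against 6.68% of all tested genes). The keratins overlapped, with Krt5 at 14.1 to 36.2 FPKM in WT mice and 17.3 to 20.6 FPKM in the Trp53pc-/- mice. With either other scaling only 1 of the 8 markers was lower without overlap.

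Cell cycle genes were expressed at low levels in both groups, and 8 of 28 (28.6%) were higher without overlap and 1 lower, against 8.53% and 6.68% of all tested genes. Of the 8, only Cdk1, Cdc20, Aurkb and Bub1b had at least 10 fragments in every WT library. The higher genes were the mitotic kinase genes Cdk1, Plk1, Aurkb, Bub1 and Bub1b, the mitotic regulators Cdc20 and Cdc25c, and Birc5, which encodes survivin. Cdc20 had 0.555, 0.298 and 0.270 FPKM in WT mice and 0.765, 1.55 and 0.813 FPKM in the Trp53pc-/- mice, and Cdk1 had 0.823, 0.669 and 0.663 FPKM and 0.992, 1.85 and 0.979 FPKM. In both genes Trp53pc-/- replicate 2 was highest and the other 2 Trp53pc-/- mice were close to the WT range. The proliferation marker Mki67 overlapped, with 0.429, 0.188 and 0.340 FPKM in WT mice and 0.380, 0.462 and 0.430 FPKM in the Trp53pc-/- mice, as did Top2a, and Aurka was lower without overlap. None of the 28 genes had an unadjusted p under 0.05 in limma, and their median log2 difference was 0.11. This median was 0.06 without Trp53pc-/- replicate 2, 0.07 without WT replicate 2, 0.17 without WT replicate 1 and 0.19 without Trp53pc-/- replicate 3. The count of higher genes was 14 of 28 without WT replicate 1 and 13 of 28 without Trp53pc-/- replicate 3, against 16.4% and 25.4% of all tested genes.

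Among the 25 lists, the unfolded protein response genes had the largest share of lower genes. This response is set off when unfolded proteins gather in the endoplasmic reticulum, which secretory cells load heavily, and it raises the chaperones and folding enzymes of that compartment through the sensors Ern1, Atf6 and the kinase that leads to Atf4. Of 21 genes tested, 9 (42.9%) were lower without overlap and none was higher, against 6.68% and 8.53% of all tested genes. The median log2 difference was -0.39, against 0.03 over all tested genes. The median was -0.26 without Trp53pc-/- replicate 3 and -0.61 without Trp53pc-/- replicate 1. The 9 genes encode chaperones and lectins of the lumen (Hspa5, Hsp90b1, Calr), their cochaperones (Dnajb9, Dnajc3), the disulfide isomerase Pdia4, the secreted factor Manf, the degradation component Herpud1 and the sensor Ern1.

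Hspa5, which encodes the master chaperone BiP, had 1258, 1738 and 2420 FPKM in WT mice and 963, 706 and 654 FPKM in the Trp53pc-/- mice. Every Trp53pc-/- mouse lay below every WT mouse, and the WT mice themselves spanned almost the same distance as the groups. The log2 difference was -1.19 (SE 0.49, adjusted p = 0.937 in limma after Benjamini-Hochberg correction), and the mean FPKM was 2.33-fold lower. Pdia4 had 298, 345 and 577 FPKM in WT mice and 194, 144 and 103 FPKM in the Trp53pc-/- mice, a mean 2.76-fold lower. Hsp90b1, which encodes the chaperone GRP94, had 824, 934 and 1582 FPKM and 596, 396 and 436 FPKM, and calreticulin (Calr) had 1085, 985 and 1446 FPKM and 809, 625 and 558 FPKM. WT replicate 3 was the highest WT mouse in each of these 4 genes.

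The transcription factors of the response overlapped between the groups. Xbp1, spliced by Ern1, had 116, 103 and 105 FPKM in WT mice and 111, 120 and 136 FPKM in the Trp53pc-/- mice, and Atf4 had 107, 120 and 106 FPKM and 124, 174 and 77.2 FPKM. Ddit3, the proapoptotic factor CHOP, also overlapped. With Pb-ERG as the background, 9 of the 21 genes were again lower without overlap, against 3.23% of all tested genes. The median log2 difference of the 21 genes was -0.74 there, against 0.12 over all tested genes. In both comparisons 7 genes were lower (Hspa5, Hsp90b1, Dnajc3, Herpud1, Pdia4, Calr and Manf), against 71 of all 17623 genes. Hspa5 had 3170, 891 and 1236 FPKM in the Pb-ERG mice and 633, 636 and 698 FPKM in the Pb-ERG, Trp53pc-/- mice. The part of lesions and secretory content in these values was not tested.

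**Figure D3:**
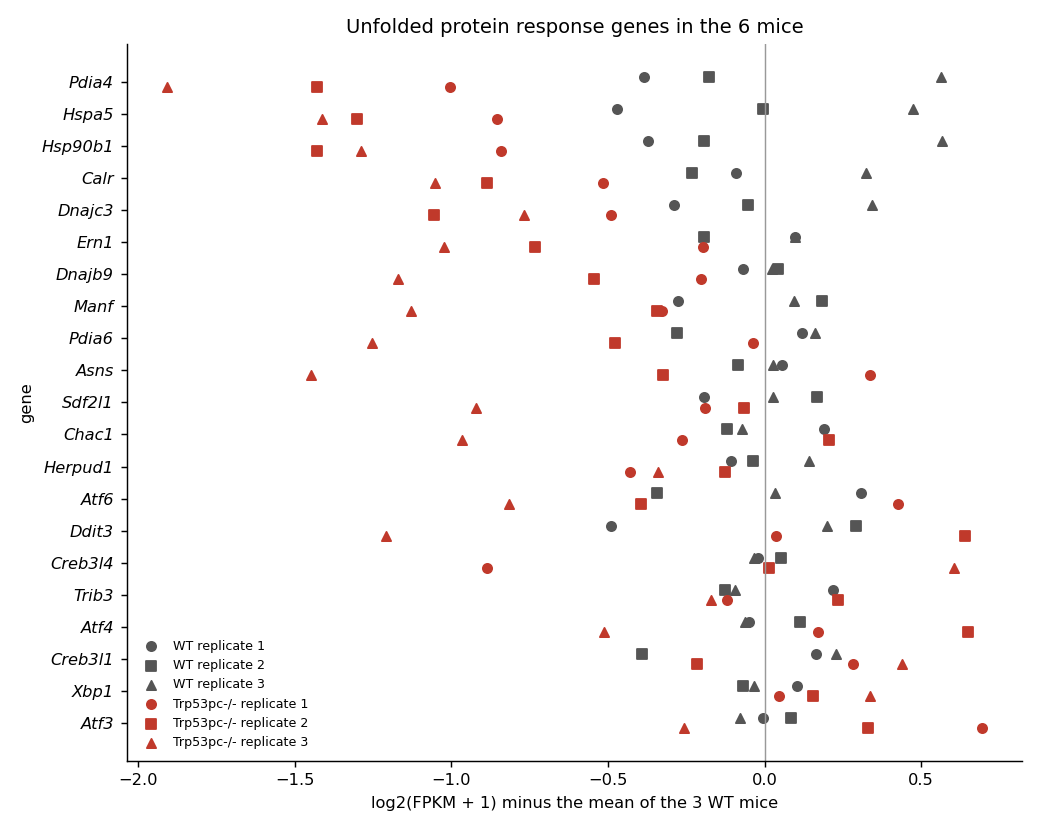
Unfolded protein response genes in single mice, as log2(FPKM + 1) minus the mean of the 3 WT mice (x axis), with WT mice in grey, Trp53pc-/- mice in red and replicate numbers by symbol. Genes are ordered by the mean of the Trp53pc-/- mice, and 9 of the 21 genes have all red points to the left of all grey points.

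The promoter windows of Hspa5, Hsp90b1, Dnajc3 and Calr share an element. They hold the ER stress response element, spelled CCAAT, then 9 bases of any kind, then CCACG, on either strand, and they are shown with each match in capitals. A match was present in 37 of 27025 genes (0.137%) and in 5 of the 18 list members with a window, namely Hspa5, Hsp90b1, Dnajc3, Calr and Pdia6. Of the 8 lower members with a window, Ern1, Dnajb9, Herpud1 and Pdia4 held no match. The windows are from RefSeq, GRCm38.p6, at chr2:34771840-34772139 on the plus strand for Hspa5, chr10:86705395-86705694 on the minus strand for Hsp90b1, chr14:118937682-118937981 on the plus strand for Dnajc3 and chr8:84846882-84847181 on the minus strand for Calr.
Hspa5: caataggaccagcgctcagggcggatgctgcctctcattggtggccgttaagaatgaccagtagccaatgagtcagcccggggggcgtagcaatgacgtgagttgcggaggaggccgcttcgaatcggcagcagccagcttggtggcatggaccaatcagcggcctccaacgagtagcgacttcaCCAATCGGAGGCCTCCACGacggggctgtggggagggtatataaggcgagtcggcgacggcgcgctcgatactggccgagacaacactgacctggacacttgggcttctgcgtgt
Hsp90b1: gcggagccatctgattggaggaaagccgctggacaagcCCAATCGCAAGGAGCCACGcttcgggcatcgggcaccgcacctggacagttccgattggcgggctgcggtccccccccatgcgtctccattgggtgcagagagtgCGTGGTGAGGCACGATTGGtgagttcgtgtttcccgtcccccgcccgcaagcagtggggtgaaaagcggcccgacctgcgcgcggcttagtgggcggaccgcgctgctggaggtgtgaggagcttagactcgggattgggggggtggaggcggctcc
Dnajc3: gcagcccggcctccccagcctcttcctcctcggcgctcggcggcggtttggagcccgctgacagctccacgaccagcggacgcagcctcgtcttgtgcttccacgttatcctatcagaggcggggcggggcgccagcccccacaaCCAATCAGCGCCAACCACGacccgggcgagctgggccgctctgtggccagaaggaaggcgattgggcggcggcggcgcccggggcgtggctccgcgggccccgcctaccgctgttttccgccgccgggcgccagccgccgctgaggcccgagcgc
Calr: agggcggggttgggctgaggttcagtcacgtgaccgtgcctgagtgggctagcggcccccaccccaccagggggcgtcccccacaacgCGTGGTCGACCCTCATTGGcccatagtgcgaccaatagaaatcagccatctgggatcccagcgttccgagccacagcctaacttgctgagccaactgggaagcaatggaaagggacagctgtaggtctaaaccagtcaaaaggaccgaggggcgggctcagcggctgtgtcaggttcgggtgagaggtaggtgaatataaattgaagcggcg
Hsp90b1 holds 2 matches, with the second on the opposite strand, and the match in Calr is also on the opposite strand. Pdia6, the member with a match that overlapped between the groups, had 1695, 1283 and 1742 FPKM in WT mice and 1519, 1120 and 653 FPKM in the Trp53pc-/- mice.

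The secretory products of the lobes differed more between mice than between the groups. The 20 prostate secretory genes took 23.9%, 25.96% and 25.2% of the fragments in WT mice and 21.9%, 16.9% and 32.5% in the Trp53pc-/- mice. Of the 19 tested, 1 (Ceacam10) was higher without overlap and none was lower, against 8.53% and 6.68% of all tested genes. The median log2 difference was -0.52. Without Trp53pc-/- replicate 2, 2 of the 19 were higher (10.5%), against 10.4% of all tested genes. Without Trp53pc-/- replicate 3, 2 were lower (10.5%), against 11.7%, and without Trp53pc-/- replicate 1, 4 were lower (21.1%), against 14.6%. Sbp (chromosome 17, 23941672 to 23945607, plus strand), the spermine-binding protein of the ventral lobe, had 10960, 52649 and 33646 FPKM in WT mice and 582, 23937 and 163452 FPKM in the Trp53pc-/- mice. The highest Trp53pc-/- mouse was 281-fold above the lowest, against 4.80-fold among the WT mice, and of 14384 genes with at least 10 fragments in each of the 6 libraries Sbp had the widest span among the Trp53pc-/- mice. The median span was 1.496-fold among the Trp53pc-/- mice and 1.325-fold among the WT mice.

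The neighbouring gene Sbpl followed Sbp, with 1003, 4787 and 5903 FPKM in WT mice and 107, 2546 and 16157 FPKM in the Trp53pc-/- mice, as did SPINK3, a trypsin inhibitor, with 540, 42226 and 140716 FPKM in the Trp53pc-/- mice. Over the 12 libraries, the genes whose log2(FPKM + 1) followed Sbp most closely were SPINK3 (Pearson r = 0.963), Wfdc3 (r = 0.947) and Sbpl (r = 0.865), a description of libraries that include 4 genotypes. Trp53pc-/- replicate 1 was lowest and replicate 3 highest in all 3 of Sbp, Sbpl and SPINK3.

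Tgm4, 9530053A07Rik and Pbsn ran the other way. Tgm4, the transglutaminase that clots the copulatory plug, had 25325, 19100 and 21316 FPKM in WT mice and 29958, 18684 and 4213 FPKM in the Trp53pc-/- mice. The abundant secretory gene 9530053A07Rik had 14623, 10414 and 14046 FPKM and 13152, 4993 and 2490 FPKM, and probasin (Pbsn), the gene whose promoter drives Cre, had 16832, 20035 and 9736 FPKM and 16511, 17776 and 5504 FPKM. In each of these genes Trp53pc-/- replicate 3 was the lowest of the 6 mice and Trp53pc-/- replicate 1 lay within or above the WT range. Msmb, beta-microseminoprotein, had 5971, 5445 and 3094 FPKM in WT mice and 617, 902 and 4429 FPKM in the Trp53pc-/- mice, and the defensin gene Defb50 had 11953, 11036 and 8836 FPKM and 3000, 4255 and 11522 FPKM. Both were low in Trp53pc-/- replicates 1 and 2 and within the WT range in replicate 3.

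**Figure D4:**
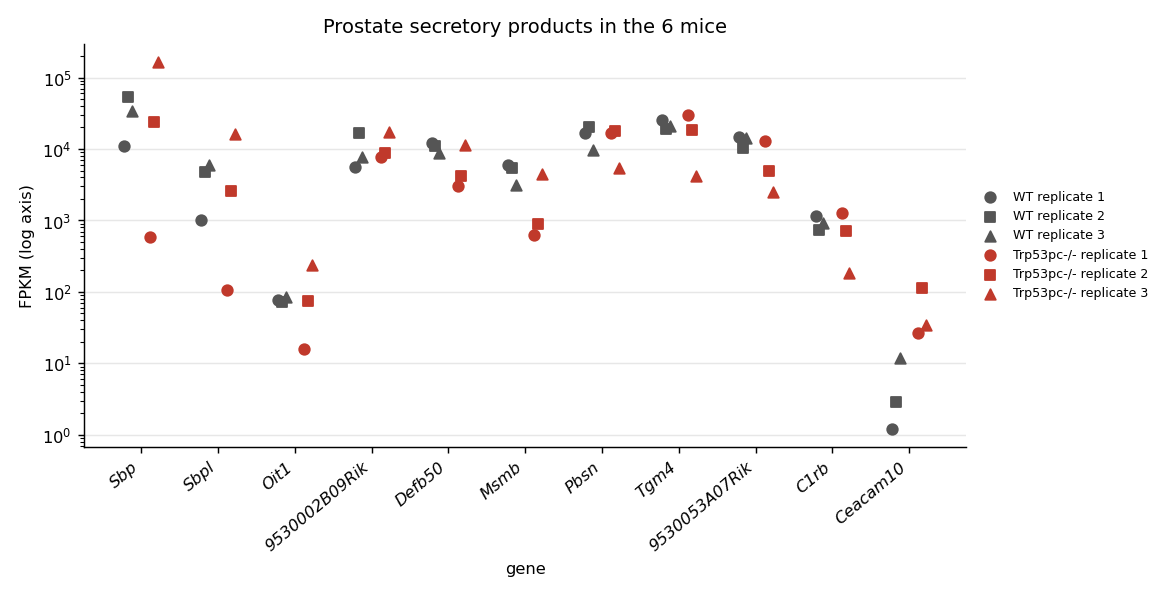
FPKM of 11 prostate secretory products on a log axis in single mice, with WT mice in grey, Trp53pc-/- mice in red and replicate numbers by symbol. The 3 Trp53pc-/- mice spread from 582 to 163452 FPKM for Sbp, and only Ceacam10 has all red points above all grey points.

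Several seminal vesicle products were higher in the Trp53pc-/- mice, while those most abundant in WT mice overlapped. The seminal vesicles adjoin the anterior lobes and secrete semenogelin-like proteins encoded by a cluster of Svs genes on chromosome 2, and the labels do not say whether any of that tissue was taken with the prostate. Of 11 genes, 10 were tested and 5 were higher without overlap, namely Svs3a, Svs3b, Svs4, Svs6 and Sva. Svs3a, Svs3b and Sva had under 10 fragments in at least 1 WT library and passed the filter through libraries of other groups, so the count of 5 is not read against the share over all genes. With at least 10 fragments required in every library, of the 5 only Svs4 remained. Svs4 had 206, 26.8 and 123 FPKM in WT mice and 1256, 5842 and 1076 FPKM in the Trp53pc-/- mice, a mean 23.0-fold higher (9.84-fold without Trp53pc-/- replicate 2 and 36.4-fold without WT replicate 1). Svs6 had 1.93, 1.09 and 8.57 FPKM and 163, 596 and 143 FPKM, a mean 77.8-fold higher (39.6-fold without Trp53pc-/- replicate 2 and 199-fold without WT replicate 3). Svs3a had 0.0957, 0.445 and 1.96 FPKM and 114, 253 and 55.1 FPKM, with a log2 difference of 6.14 (SE 2.32, adjusted p = 0.935 in limma after Benjamini-Hochberg correction), and its paralog Svs3b, with which fragments may be shared, had 0.429, 0.311 and 1.999 FPKM and 32.5, 127 and 38.7 FPKM.

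The products of the same gland that were most abundant in WT mice overlapped, whereas Svs4 was the most abundant in each Trp53pc-/- mouse. Svs2, which encodes the main clotting substrate, had 8321, 171 and 12002 FPKM in WT mice and 14.3, 337 and 45.2 FPKM in the Trp53pc-/- mice. WT replicates 1 and 3 were high, and WT replicate 2 lay between the Trp53pc-/- mice. Pate4 had 1644, 95.3 and 2912 FPKM and 6.90, 275 and 50.2 FPKM, and Svs5 had 4694, 237 and 8572 FPKM and 632, 2547 and 622 FPKM. The 11 genes together took 2.14%, 0.0612% and 3.24% of the fragments in WT mice and 0.162%, 0.764% and 0.152% in the Trp53pc-/- mice. Svs4 was thus below Svs2 in every WT mouse and above it in every Trp53pc-/- mouse. The epididymis and vas deferens markers gave no further reading, as 2 of 9 were tested and neither was without overlap. Among the mice with Pb-ERG the span was wider, with Svs4 at 11496, 102 and 57.1 FPKM in the Pb-ERG mice and at 2032, 34926 and 1.23 FPKM in the Pb-ERG, Trp53pc-/- mice, and none of the 10 was without overlap.

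**Figure D5:**
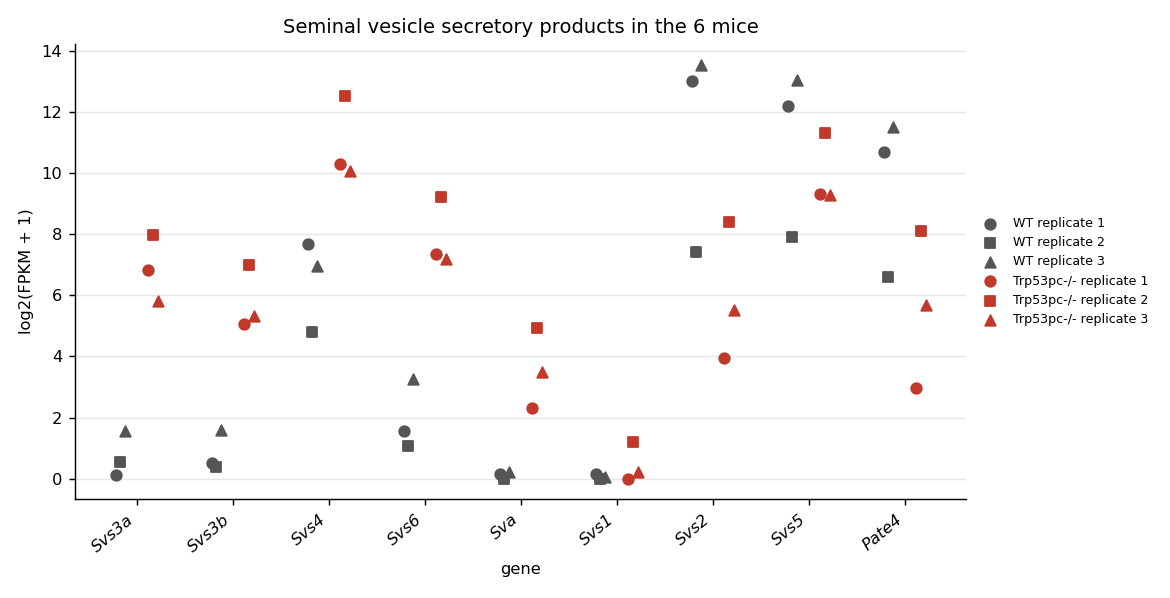
Seminal vesicle products in single mice as log2(FPKM + 1), with WT mice in grey, Trp53pc-/- mice in red and replicate numbers by symbol. Svs3a, Svs3b, Svs4, Svs6 and Sva have all red points above all grey points, whereas for Svs2, Svs5 and Pate4 the points of the groups mix.

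The widest gaps between the groups were named by rule, as the 12 higher and 12 lower genes with the largest distance on log2(FPKM + 1) between the nearest mice of the groups, among 1237 higher and 762 lower genes with a mean of at least 1 FPKM and at least 10 fragments in each library of the higher group. Because the gap chose them, their values are a description. The higher genes were Svs3a, Svs6, Svs3b, Svs4, Gm27786, Sva, Dnase2b, Gm26917, Il1r2, Ceacam10, Gapdh and Echdc3, and the next in order was AY036118. The lower genes were Bglap3, H2-Q10, Nlrp10, Ces1d, Syt10, Npy, Vip, Gm20442, Hsph1, Atp6v1g3, Scin and Enpp2, and the next was Pfkfb3. Adjusted p ranged from 0.935 to 0.983 over the 24 genes in limma with Benjamini-Hochberg adjustment.

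Several of the higher genes belong to secretion, inflammation or RNA content. Ceacam10 (chromosome 7, 24777204 to 24784649, plus strand), a secreted adhesion-family protein counted above with the prostate products, had 1.21, 2.84 and 11.8 FPKM in WT mice and 26.8, 113 and 34.8 FPKM in the Trp53pc-/- mice. It was highest in Trp53pc-/- replicate 2 and, among the WT mice, in replicate 3, as were the seminal vesicle products Svs3b and Svs6. Which gland its RNA came from was not tested. With Pb-ERG as the background Ceacam10 was also higher without overlap, at 39.6, 11.1 and 4.87 FPKM against 54.4, 60.4 and 69.7 FPKM. Il1r2 (chromosome 1, 40084768 to 40125219, plus strand), the decoy receptor for interleukin 1, had 1.86, 2.32 and 1.87 FPKM and 24.3, 18.9 and 6.44 FPKM, a mean 8.21-fold higher. Dnase2b (chromosome 3, 146580985 to 146596612, minus strand), an acid DNase, had 0.104, 0.0379 and 0.145 FPKM and 3.89, 6.67 and 2.72 FPKM. Il1r2 varied little among the WT mice, Dnase2b was close to 0 there with 19 fragments in all, and Trp53pc-/- replicate 3 had the lowest value of its group for Il1r2 and Dnase2b.

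Other higher genes carry a limit of counting. Gm26917 and AY036118, both with ribosomal RNA-like sequence on chromosome 17, were highest in Trp53pc-/- replicate 2, where Gm26917 had 29.4 FPKM against 5.36 and 4.32 FPKM in the other Trp53pc-/- mice and 0.472 to 0.749 FPKM in the WT mice. Gm27786 (chromosome 7, 142577849 to 142577918, plus strand) lies inside H19 on the opposite strand, and the kit does not mark strand, so the 2 genes cannot be told apart. H19, an imprinted noncoding RNA, had 0.0670, 0.255 and 0.717 FPKM in WT mice and 2.42, 5.16 and 1.78 FPKM in the Trp53pc-/- mice. Gapdh, the glycolytic enzyme gene, had 15.4, 11.2 and 13.4 FPKM and 34.4, 30.2 and 49.1 FPKM, and its value is uncertain because many processed copies of Gapdh share its sequence. Echdc3, an enoyl-CoA hydratase-like enzyme, had 1.93, 1.504 and 1.37 FPKM and 6.68, 6.18 and 4.30 FPKM, with the smallest SE of the 12 (log2 difference 1.36, SE 0.25).

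Among the lower genes, Bglap3 (chromosome 3, 88368616 to 88372743, minus strand), a member of the osteocalcin family, had 123, 101 and 83.6 FPKM in WT mice and 8.33, 10.3 and 0.445 FPKM in the Trp53pc-/- mice, a mean 16.1-fold lower. It was low in the transgenic mice as well, at 14.4, 1.85 and 1.05 FPKM in the Pb-ERG mice and 2.27, 1.60 and 0.152 FPKM in the Pb-ERG, Trp53pc-/- mice, so all 9 mice that were not WT lay below the 3 WT mice. H2-Q10 (chromosome 17, 35470089 to 35474563, plus strand), a secreted class I histocompatibility protein with close paralogs, had 24.8, 21.8 and 17.5 FPKM and 4.53, 1.40 and 1.06 FPKM. Its log2 difference was -2.88 (SE 0.46), and the Trp53pc-/- mice stood far below the WT mice.

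The other lower genes were of mixed function. Nlrp10, an inflammasome-family gene, had 23.4, 21.3 and 14.2 FPKM in WT mice and 4.66, 3.36 and 0.464 FPKM in the Trp53pc-/- mice. Ces1d, a lipid-cleaving carboxylesterase, had 19.1, 14.5 and 22.5 FPKM and 3.01, 5.28 and 4.01 FPKM. Syt10, a synaptotagmin that senses calcium in exocytosis, had 7.10, 9.03 and 10.7 FPKM and 1.31, 1.37 and 2.51 FPKM. In all 3 genes each Trp53pc-/- mouse stood well below the lowest WT mouse. Enpp2, which encodes autotaxin, had 11.7, 14.8 and 9.75 FPKM and 4.14, 4.51 and 5.45 FPKM, and Scin, an actin-severing protein, had 4.71, 3.77 and 4.70 FPKM and 1.15, 1.84 and 1.18 FPKM. The neuropeptide genes Npy and Vip had 2.40 to 8.62 FPKM and 1.21 to 7.27 FPKM in the WT mice, and at most 0.588 FPKM and 0.0995 FPKM in the Trp53pc-/- mice. The cytosolic chaperone gene Hsph1 had 30.1, 54.8 and 115 FPKM and 16.9, 12.2 and 11.1 FPKM.

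Of 9 markers of luminal cells, 6 overlapped between the groups. Krt8 and Hoxb13 were higher without overlap (22.2%, against 8.53% of all tested genes) and Epcam was lower (11.1%, against 6.68%). Of 18 androgen-responsive genes, 1 was higher and 1 lower (5.56% each). None of the 8 progenitor-like luminal, 10 smooth muscle, 8 endothelial, 7 plasma and B cell, 7 adipocyte or 18 pyrimidine synthesis genes tested was without overlap in either direction. With the genes above 1% kept out of the total, 2 smooth muscle genes and 1 pyrimidine gene were higher, and with median-of-ratios scaling 2 endothelial genes were lower and 1 pyrimidine gene higher. With 1 mouse left out, the shares over all tested genes rose as well. Without Trp53pc-/- replicate 3, 6 of 10 smooth muscle genes, 7 of 18 pyrimidine genes and 5 of 9 luminal markers were higher, against 25.4% of all tested genes. In the same setting 8 of the 18 androgen-responsive genes (44.4%) were lower, against 11.7% of all tested genes, and 1 was higher. Without WT replicate 2, 6 of the 10 smooth muscle genes were higher, against 14.2%. Without Trp53pc-/- replicate 1, 4 of the 8 progenitor-like markers were higher, against 14.2%. Without WT replicate 1, 4 of the 8 endothelial markers were lower, against 10.1%. Among 15 Wnt and beta-catenin genes, Tcf7l2, a transcription factor that acts with beta-catenin, was lower without overlap, with 2.28, 2.35 and 2.34 FPKM in WT mice and 2.04, 1.52 and 1.80 FPKM in the Trp53pc-/- mice. Without Trp53pc-/- replicate 3, 5 of these 15 genes were higher and 5 lower, against 25.4% and 11.7% of all tested genes. The 15 leukocyte markers tested were split, with Cd8a and H2-Ab1 higher and Cd3e and Itgam lower. The remaining lists held 1 to 3 genes without overlap each, where 8.53% of all tested genes were higher and 6.68% lower. Of 8 skeletal muscle markers Acta1, Myh4 and Tnni2 were higher (37.5%, against 8.53% over all tested genes), and of the 3 only Acta1 had at least 10 fragments in every WT library. Without WT replicate 1 or without Trp53pc-/- replicate 3, 5 of the 8 were higher, against 16.4% and 25.4% of all tested genes. Of 20 interferon-stimulated genes Irf7 and Bst2 were higher and Oasl2 lower, of 19 acute phase and inflammatory genes Saa3 and Ccl2 were higher, and of 21 cholesterol synthesis genes Pmvk was higher and Fdft1 and Msmo1 lower. Of 9 fibroblast markers Col3a1 and Pdgfra were lower, of 5 neuroendocrine markers Syp and Scg2 were lower (against 6.68% over all tested genes), Scg2 with under 10 fragments in a Trp53pc-/- library, and of 5 urothelial markers Upk3b was lower. Most of these were low, with Myh4 at 0 fragments in WT mice and 60 in Trp53pc-/- mice, and Acta1 was the most abundant of the muscle genes, with 85.9, 76.0 and 60.5 FPKM in WT mice and 185, 149 and 93.5 FPKM in the Trp53pc-/- mice.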

How the data were processed

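RNA-seq libraries of mouse prostate were compared, 3 Trp53pc-/- and 3 WT, grouped by the genotyping label. According to the methods, RNA from flash-frozen tissue was made into TruSeq v2 libraries, which do not mark strand, and paired reads were aligned to GRCm38/mm10 with STAR, version 2.5.2b in the submitters' processing notes (the methods name another release). The FPKM values deposited by the authors give the fragments of a gene relative to its exon length and the total of its library. Multiplied by exon length and 1 total per library, 100% of them came out as whole fragments within 0.01, which gave the depth. Counting error covers only the sampling of fragments, and 3 fragments is the floor.

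Genes with at least 10 fragments (0.42 CPM) in at least 3 of the 12 libraries and a total of at least 15 were tested, 17623 of 41042. A list member can pass this filter through 1 group alone. Log2(FPKM + 1) was fitted with limma-trend over the 4 groups (8 residual degrees of freedom), with Benjamini-Hochberg adjustment and a threshold of 0.001. This scale understates changes of low genes. The fit was tested on simulated data. Lists were described by counts without overlap and medians, with no set test. Named genes were Trp53, Erg, the 12 widest gaps each way, list members and genes above 1% of a library, and the values of some list members are not reported here. The comparison, 25 lists and rules were chosen with earlier results of these data known, and 4 further lists (ribosomal RNA-related, haemoglobin, autonomic neuron, heat shock) after the values were seen. Symbols are those of the tables, 36918 of them current names. Promoter windows came from RefSeq. The methods call the samples of a group biological triplicates.

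WT and Trp53pc-/- mice with the same replicate number deviated together from their group means (r = 0.179, 0.218 and 0.240 for the 3 pairs, against -0.21 to -0.05 for other pairings), so the replicate number was also fitted as a block. Alternatives were median-of-ratios scaling, a total without genes above 1%, no filter, 10 fragments in every library, a pseudocount of 0.1, only the 6 libraries, limma voom on recovered fragments, an adjusted p under 0.05 and each mouse left out. Fits were run with limma 3.58.1 in R 4.3.3, and counts and plots were made in Python 3.11.15 with matplotlib 3.10.9, SciPy 1.17.1, numpy 2.4.6 and pandas 2.3.3.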

Additional observations from a re-analysis of the deposited data

How the results depend on the processing

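With each mouse of the 6 left out in turn, 0 genes were called at an adjusted p under 0.001 in limma with Benjamini-Hochberg adjustment, and 0 to 1 at an adjusted p under 0.05. The single genes were Havcr1 (lower, adjusted p = 0.00137 without WT replicate 3), Gm26812 (lower, adjusted p = 0.0469 without WT replicate 1) and Mrgpra3 (higher, adjusted p = 0.0462 without Trp53pc-/- replicate 3). The replicate block also called 0 genes and changed no other call. Genes at an unadjusted p under 0.05 numbered 908, against 1500 without the genes above 1% in the total, 1715 with only the 6 libraries and 350 to 1527 with a mouse left out (361 without WT replicate 3, 350 without Trp53pc-/- replicate 2 and 1527 without Trp53pc-/- replicate 3). Genes without overlap numbered 1742 to 4477 higher (2893 without WT replicate 1, 4477 without Trp53pc-/- replicate 3) and 1562 to 2574 lower with a mouse left out, where fewer values have to be separated. In 3708 genes every Trp53pc-/- mouse was above the WT mouse of its number and in 2735 below. With a mouse left out, 5 to 13 p53-induced genes were lower and 8 to 14 cell cycle genes higher without overlap, and the median log2 difference of the p53-induced genes ran from -0.060 to 0.013. The cell cycle median was 0.31 with a pseudocount of 0.1, and the median of the seminal vesicle products was -0.45 with 10 fragments in every library, which leaves fewer genes. The 48 genes followed were all chosen because the groups did not overlap. That they kept their direction in all 656 alternatives run therefore follows largely from the choice and is no test. With median-of-ratios scaling, 2 of them were no longer without overlap.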

Other observations

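Genes of autonomic neurons, a list written after the values were seen, included 7 of 10 that were lower without overlap in the Trp53pc-/- mice (6.68% over all tested genes), and the other 3 overlapped. Because the list was chosen on these values, and of the 7 only Stmn2 had at least 10 fragments in every Trp53pc-/- library, the count is a description. The noradrenergic enzyme genes Th and Dbh, the neuropeptide genes Npy and Vip, and Tubb3, Snap25 and Stmn2 were the lower ones. The summed level of the list was 28.8, 7.93 and 35.7 FPKM in WT mice and 3.21, 2.51 and 1.23 FPKM in the Trp53pc-/- mice, so WT replicates 1 and 3 stood out, the same mice that were high in Svs2 and Pate4. Snap25 had 3.02, 0.326 and 4.02 FPKM in WT mice and 0.130, 0.0680 and 0.0395 FPKM in the Trp53pc-/- mice. On the Pb-ERG background none of the 10 genes was without overlap, and the Pb-ERG, Trp53pc-/- replicate 1 had 12.2 FPKM of Snap25 against at most 0.434 in the other 2 mice of its group. The part of the tissue dissected with the gland in these values was not tested.

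Heat shock and cold shock genes, also listed after the values were seen, gave 1 of 12 higher (8.33%) and 2 lower (16.7%) without overlap. Over all tested genes the shares were 8.53% and 6.68%, and as the list was chosen on these values, the counts are a description. The cold-inducible gene Cirbp had 21.8, 11.4 and 8.40 FPKM in WT mice and 33.9, 36.9 and 32.9 FPKM in the Trp53pc-/- mice, and the cytosolic chaperone gene Hsp90aa1 had 53.4, 84.3 and 179 FPKM and 42.0, 46.8 and 47.3 FPKM. The inducible gene Hspa1a overlapped, with 0.929, 1.05 and 0.992 FPKM and 0.518, 1.47 and 0.610 FPKM.

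By position, chromosome X held 78 lower and 19 higher genes without overlap of 632 tested (12.3% and 3.01%), whereas on the autosomes 4.87% to 9.29% were lower. Within 10 Mb of Trp53 on chromosome 11, 47 of 359 genes were higher (13.1%) and 11 lower (3.06%), and on the whole chromosome 11.7% were higher and 5.28% lower.

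The kidney injury marker Havcr1 had 2.74, 2.299 and 0.379 FPKM in WT mice and 0.0736, 0.112 and 0.0782 FPKM in the Trp53pc-/- mice, from 13 fragments in all in the latter.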
